A study of Mus musculus with 23 samples.

Results

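The stretch-responsive ankyrin repeat and Xin genes were examined in quadriceps, a thigh muscle that extends the knee. They are 10 genes of the Z-disc, the titin filament and the links from both to the fiber membrane: Ankrd1, Ankrd2, Ankrd23, Csrp3, Xirp1, Xirp2, Myoz1, Myoz2, Ldb3 and Smpx. They were chosen by name and not by a rule on their values, though with earlier results of these data known. All 10 were found among the 55573 gene IDs of the count table, and all 10 passed the filter on low counts, which kept 13049 genes.

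Bulk RNA of the quadriceps was sequenced from 23 C57Bl6 mice aged 8 to 10 weeks, in order to see how glucocorticoid exposure changes the muscle of males and of females. Corticosterone is the main glucocorticoid of mice and was given for 14 days from a pellet under the skin with 50 mg corticosterone and 50 mg cholesterol. Vehicle-treated mice carried a pellet of 100 mg cholesterol, and mice of every group were fasted for 5 hours before tissue was taken. There were 6 vehicle-treated males, 6 corticosterone-treated males, 6 vehicle-treated females and 5 corticosterone-treated females, none of them with an allele or agent beyond these pellets in the labels. Each mouse is named by F or M and its number, and the 5 corticosterone-treated females are always given in the order F2, F4, F6, F8, F10. Levels are in CPM, which puts the counts of every mouse on the same total after scaling by the trimmed mean of log ratios (TMM), and changes are log2 fold changes (log2FC) of corticosterone over vehicle with their standard error (SE).

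The Z-disc anchors the thin filaments and the ends of titin, and it is a place where muscle fibers register load. Ankrd1, Ankrd2 and Ankrd23 make the muscle ankyrin repeat proteins, which bind the spring region of titin and can move to the nucleus, and Ankrd1 and Ankrd2 are known to be induced by stretch and by injury. Csrp3 makes muscle LIM protein, Xirp1 and Xirp2 make the actin-binding Xin proteins found at sites of fiber damage and at muscle-tendon junctions, Myoz1 and Myoz2 make calsarcins that tether calcineurin to the Z-disc, Ldb3 makes the Z-disc scaffold Cypher, and Smpx makes a small protein of the costamere, the link from the Z-disc to the membrane.

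Promoter sequences are shown so that the members can be compared by the motifs of known muscle regulators before RefSeq start sites. RefSeq windows of the 250 bases before a start site (GRCm38.p6) were given for 8 of the 10 genes, and Xirp1 and Myoz1 had none. Stretches of the members with a match are printed 5′ to 3′ on the strand of the gene, with the match in capitals. Both stretches of Ankrd1 hold the M-CAT motif CATTCC read from the other strand (chr19:36120037-36120066 and chr19:36119950-36119979, minus strand), and Ankrd23 holds it in the printed direction (chr1:36535842-36535871, minus strand). Xirp2 (chr2:67445918-67445947, plus strand) and Myoz2 (chr3:123034994-123035023, minus strand) hold a MEF2 site, Myoz2 also the E-box CAGCTG, and Ldb3 (chr14:34588697-34588726, minus strand) a CArG box, the site named for serum response factor. GENCODE places other starts for some of these genes, so that both stretches of Ankrd1 lie in the untranslated first exon of a longer transcript, that of Ankrd23 lies in the first intron of its longer transcripts, and that of Myoz2 runs into its first exon.
Ankrd1 distal: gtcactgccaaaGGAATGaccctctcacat
Ankrd1 proximal: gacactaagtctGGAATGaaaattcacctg
Ankrd23: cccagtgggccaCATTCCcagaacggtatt
Xirp2: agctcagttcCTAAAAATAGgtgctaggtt
Myoz2: gtgCTATATATAGccagttgatgtCAGCTG
Ldb3: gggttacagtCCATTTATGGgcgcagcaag
Both strands were searched, and the printed matches do not overlap each other. Among 32851 windows of the same length in all genes, 12.6% held CATTCC, 13% held CAGCTG, 0.508% held a MEF2 site and 1.47% held a CArG box. The glucocorticoid receptor motif AGAACA was found before Ldb3 and Csrp3 (16.1% of all windows), TATAAA before Ankrd2 (12.4%), and the full palindromic receptor site before none of the 8 genes (0.00913%). A match describes letters in a window and no binding was measured.

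Depth differed little, with between 20904150 and 21984477 gene counts in each mouse. Fkbp5, a classic glucocorticoid target, lay between 149 and 422 CPM in corticosterone-treated mice and at no more than 58.8 CPM in vehicle-treated mice, so that exposure matched the labels. Skeletal muscle markers were present in every mouse, while the cardiac genes Nppa and Nppb had at most 1 count in any mouse. Libraries stood apart in 2 ways. The slow fiber markers, with Myh7 among 9 genes, spread from 69.2 to 6548 CPM in sum within vehicle-treated females alone, and 9 of the 23 mice were rich in them. The liver transcript Alb was over 800 CPM in 5 mice (F6, F10, M8, M9 and M12). In bulk tissue, fewer fibers of a type and less RNA per fiber cannot be told apart.

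Ankrd1 showed the largest log2FC of the set in both sexes, near 2.7, and Xirp2 and Myoz1 were the members that rose past the threshold in males. With edgeR's quasi-likelihood test and a threshold of 0.01 after adjustment over all tested genes by Benjamini and Hochberg, 2 of the 10 members were called in males, where 26.3% of all tested genes were called and 13.2% were called higher. In females 0 of the 10 were called by edgeR, against 13.4% of all genes. At an unadjusted edgeR p below 0.05 lay 6 members in males and 4 in females, beside 6296 and 5035 of the 13049 tested genes. DESeq2 called 2 members in females, Ankrd1 and Xirp2, and limma-voom called 1, Ankrd1. The share called in males was below that of all genes and is no result about the set. The median log2FC of the members was 0.64 in males and 0.94 in females, where the medians over all tested genes were -0.02 and 0.04. In males 8 members had a log2FC above 0 and 2 below, and in females 9 and 1. Ankrd2, Csrp3 and Myoz2 varied together over the 23 mice (Pearson's r of 0.96 to 0.97). In males each of their values was smaller in size than its SE. The signs are therefore not 10 independent results and are no result about the set.

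**Figure D1:**
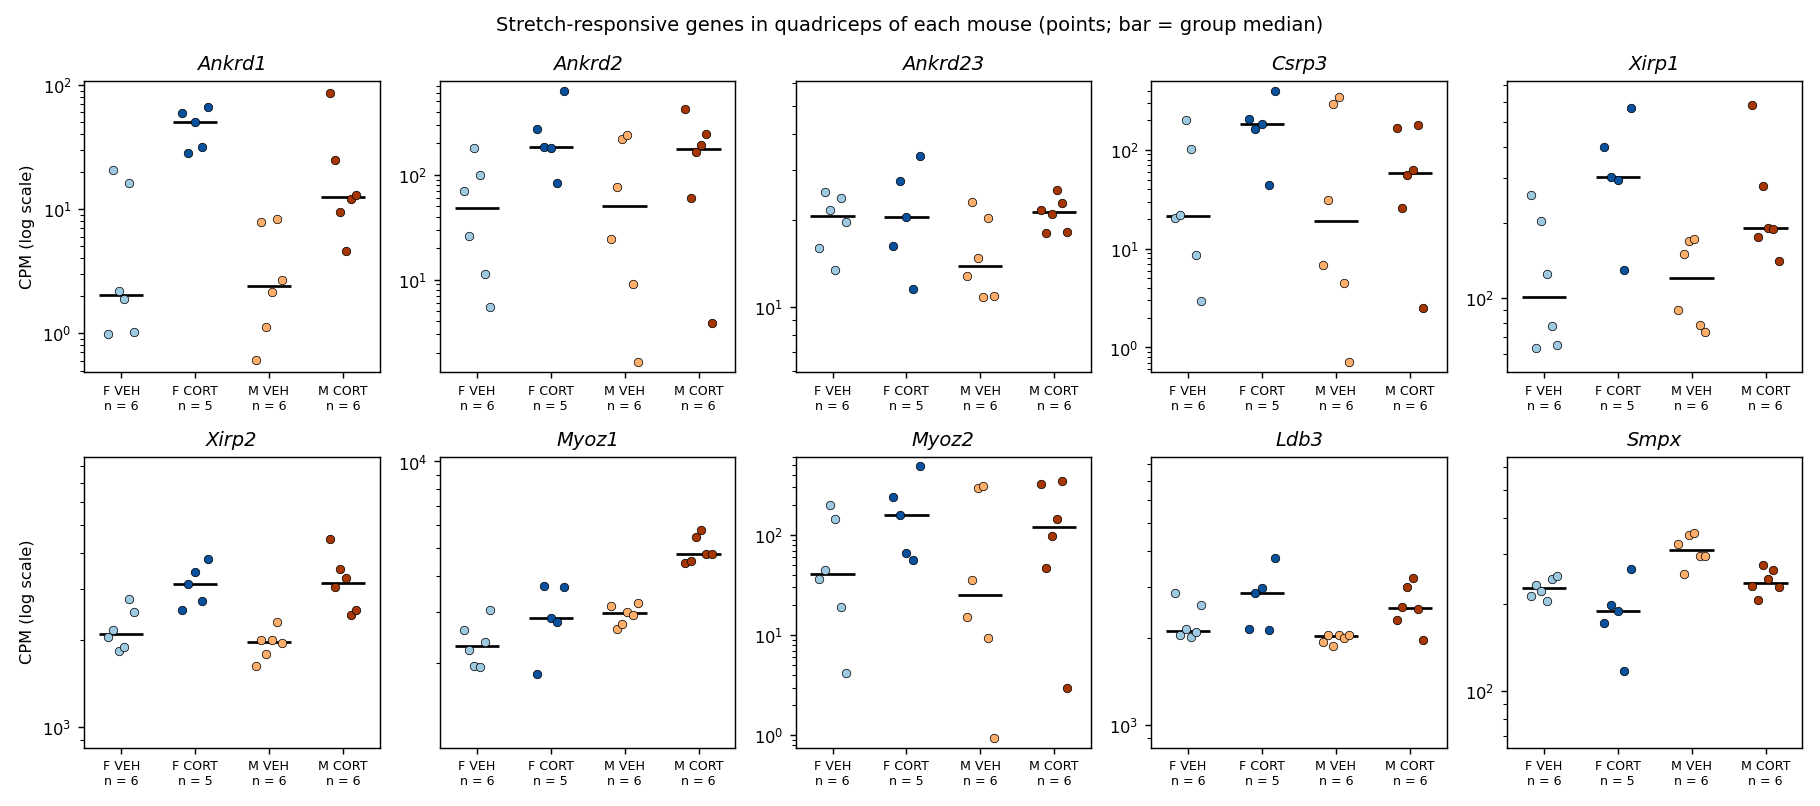
CPM of each of the 10 genes (log axes) in each mouse of the 4 groups, with points for mice and bars for group medians. All corticosterone-treated females lie above all vehicle-treated females for Ankrd1 (28.1 CPM and up against 20.6 CPM and below), and all corticosterone-treated males above all vehicle-treated males for Xirp2 and Myoz1, while Ankrd2, Csrp3 and Myoz2 spread over more than 100-fold within vehicle-treated males alone.

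**Figure D2:**
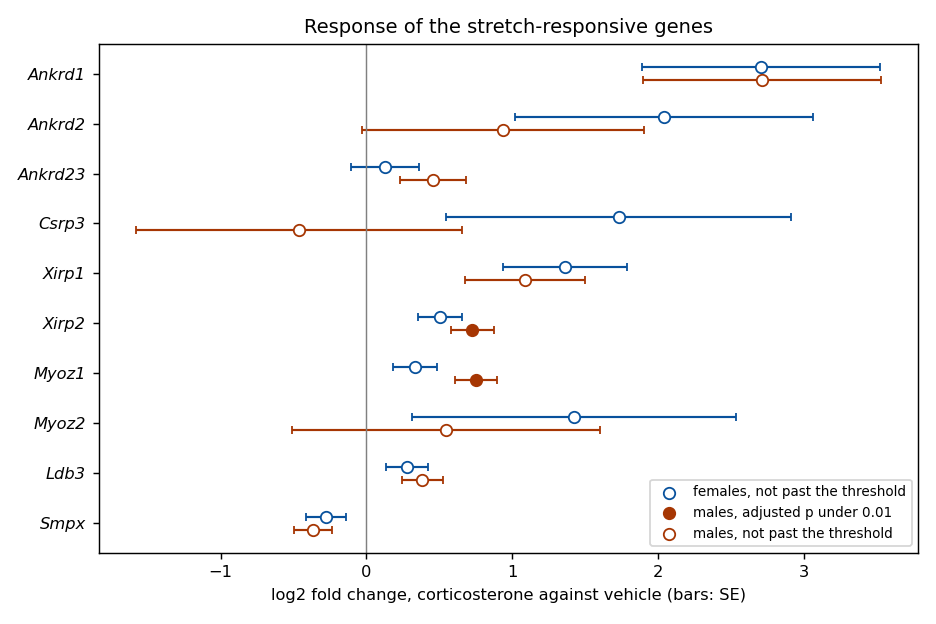
Log2FC of corticosterone against vehicle for each gene in females and males, with bars for the SE and filled points for an adjusted p under 0.01. Only Xirp2 (0.73) and Myoz1 (0.75) in males are filled, and the bars are widest for Csrp3, Myoz2 and Ankrd2.

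Ankrd1 (ENSMUSG00000024803, chromosome 19, 36111961 to 36120099, minus strand, GRCm38), the cardiac ankyrin repeat protein gene, had the lowest median of the 10 per length over all 23 mice. In corticosterone-treated females it was not the lowest, with a median of 17.3 CPM per kb of exon against 7.63 for Ankrd23. In vehicle-treated females Ankrd1 ranged from 0.976 to 20.6 CPM with a median of 2.04. In the corticosterone-treated females it was at 28.1, 49.8, 31.6, 65.7 and 59.1 CPM. The groups of females did not overlap, which held for 3.38% of all tested genes in this direction. In vehicle-treated males it ranged from 0.608 to 8.32 CPM (median 2.41) and in corticosterone-treated males from 4.59 to 85.8 CPM (median 12.5). The groups of males overlapped, and M10 was far above the other treated males, whose highest value was 24.7 CPM.

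The log2FC of Ankrd1 was 2.71 (SE 0.82) in females, a fold of 6.53, with an adjusted p of 0.0178 in edgeR. In males it was 2.72 (SE 0.82), a fold of 6.57, with an adjusted p of 0.0113 in edgeR. All 5 treated females and all 6 treated males lay above the vehicle mean of their sex, yet neither value passed 0.01. DESeq2 called Ankrd1 in both sexes, with adjusted p-values of 0.00676 in females and 0.00244 in males. Leaving out F11, the vehicle-treated female with the highest level, brought the female value to 3.39 (edgeR adjusted p 0.00821), and leaving out F1, F9, F11, M4 or M7 took the male value past 0.01. Leaving out M10 lowered the male value to 1.75 (edgeR adjusted p 0.0683).

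Ankrd2 (ENSMUSG00000025172, chromosome 19, 42036000 to 42045110, plus strand), the ankyrin repeat protein of slow fibers, spread widely between mice of a group. It was at 184, 181, 83.6, 627 and 270 CPM in the corticosterone-treated females, and at 5.52 to 180 CPM (median 47.9) in vehicle-treated females. Corticosterone-treated males ranged from 3.84 CPM in M8 to 425 CPM in M10 (median 178), and vehicle-treated males from 1.64 CPM in M9 to 241 CPM in M5 (median 50.3). Groups overlapped in both sexes. The log2FC was 2.04 (SE 1.02, edgeR adjusted p 0.145) in females and 0.94 (SE 0.96, edgeR adjusted p 0.460) in males. With single mice left out it ranged from 1.46 (without F8) to 2.66 (without F3) in females and from 0.49 (without M10) to 1.47 (without M5) in males, and limma-voom gave 2.06 in males (adjusted p 0.114).

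Ankrd23 (ENSMUSG00000067653, chromosome 1, 36530188 to 36536883, minus strand), the diabetes-related member of the family, was low and steady. It shares exons on the same strand with Gm42417, and read pairs that fell on both genes were not counted for either, so its level is uncertain. It lay between 13.4 and 25.1 CPM in vehicle-treated females and at 27.3, 20.6, 11.6, 33.6 and 16.3 CPM with corticosterone. In males it ranged from 10.8 to 23.2 CPM with vehicle and from 18.1 to 25.4 CPM with corticosterone. The log2FC was 0.13 (SE 0.24) in females and 0.45 (SE 0.23) in males, with edgeR adjusted p-values of 0.733 and 0.116. The 3 ankyrin repeat genes thus had log2FC values from 0.13 to 2.71 in females, and their order by size was Ankrd1, Ankrd2 and Ankrd23 in both sexes.

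Csrp3 (ENSMUSG00000030470, chromosome 7, 48830398 to 48848033, minus strand) was at 162, 182, 44.0, 399 and 207 CPM in corticosterone-treated females, against 2.98 to 202 CPM (median 21.3) in vehicle-treated females. In males it ranged from 2.52 to 180 CPM with corticosterone (median 59.0) and from 0.705 to 347 CPM with vehicle (median 19.2). The highest males were the vehicle-treated M3 and M5, at 292 and 347 CPM, and the groups overlapped over nearly their whole range. The log2FC was 1.73 (SE 1.18, edgeR adjusted p 0.295) in females and -0.46 (SE 1.12, edgeR adjusted p 0.768) in males, the sign in males turning when M3 or M5 was left out (0.08 and 0.30). The median of males was higher with corticosterone while the fitted log2FC, which follows the means, was below 0.

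Xirp1 (ENSMUSG00000079243, chromosome 9, 120013755 to 120023598, minus strand) was at 304, 294, 130, 570 and 398 CPM in corticosterone-treated females and at 63.8 to 257 CPM (median 101) in vehicle-treated females. Corticosterone-treated males ranged from 141 to 583 CPM (median 190) and vehicle-treated males from 73.5 to 172 CPM (median 120). Every treated male lay above the vehicle mean, and the treated female F6 alone lay below it. The log2FC was 1.36 (SE 0.43, edgeR adjusted p 0.0221) in females and 1.09 (SE 0.41, edgeR adjusted p 0.0392) in males, short of the threshold in both. As for Ankrd1, M10 was the highest male, and without it the male log2FC was 0.67. Without F1, the highest vehicle-treated female, the female value was 1.67 and passed (edgeR adjusted p 0.00929).

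Xirp2 (ENSMUSG00000027022, chromosome 2, 67446002 to 67526614, plus strand), whose protein is also called myomaxin, rose in males. Vehicle-treated males had 1629 to 2309 CPM (median 1973) and corticosterone-treated males 2450 to 4484 CPM (median 3162). These groups did not overlap, as for 10.8% of all tested genes in this direction. The log2FC was 0.73 (SE 0.15), a fold of 1.65, with an edgeR adjusted p of 0.000471, and Xirp2 was called in males in all 33 alternative analyses. In females it was at 3121, 3444, 2727, 3806 and 2544 CPM with corticosterone, against 1835 to 2779 CPM (median 2103) with vehicle. All 5 treated females lay above the vehicle mean, with a log2FC of 0.51 (SE 0.15, edgeR adjusted p 0.0169) that did not pass 0.01 in edgeR and did in DESeq2 (adjusted p 0.00574) and without M10 (edgeR adjusted p 0.00928).

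Myoz1 (ENSMUSG00000068697, chromosome 14, 20649107 to 20656540, minus strand), a calsarcin of fast fibers, rose in males and was the member with the smallest p-value. Vehicle-treated males had 2624 to 3236 CPM (median 2977) and corticosterone-treated males 4450 to 5776 CPM (median 4786), again without overlap. The log2FC was 0.75 (SE 0.14), a fold of 1.68, with an edgeR adjusted p of 0.000336, and it stayed between 0.70 and 0.84 and called in all 33 alternative analyses. In females Myoz1 was at 3693, 2871, 2776, 3654 and 1824 CPM with corticosterone and at 1928 to 3056 CPM (median 2294) with vehicle. F10 lay below every vehicle-treated female, and the log2FC was 0.33 (SE 0.15, edgeR adjusted p 0.105). Without F10 and M8 it was 0.45 (edgeR adjusted p 0.0189), short of the threshold.

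Myoz2 (ENSMUSG00000028116, chromosome 3, 123006206 to 123035015, minus strand), the calsarcin of slow fibers and heart, varied far more between mice than Myoz1. Vehicle-treated males ranged from 0.940 to 305 CPM (median 25.3) and corticosterone-treated males from 2.96 to 350 CPM (median 121). In females it was at 159, 66.2, 56.7, 484 and 240 CPM with corticosterone, against 4.20 to 199 CPM (median 40.7) with vehicle. Groups overlapped in both sexes, and the log2FC was 0.54 (SE 1.06, edgeR adjusted p 0.711) in males and 1.42 (SE 1.11, edgeR adjusted p 0.364) in females. With single mice left out it ranged from 0.16 (without M6) to 1.17 (without M5) in males and from 0.80 (without F8) to 2.0 (without F3) in females, and limma-voom gave 2.21 in males (adjusted p 0.122).

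Ldb3 (ENSMUSG00000021798, chromosome 14, 34526603 to 34588682, minus strand) varied least between mice, 2.02-fold from the lowest to the highest of all 23. It lay between 1872 and 2049 CPM in vehicle-treated males and between 1972 and 3222 CPM in corticosterone-treated males, with 1 treated male below the vehicle mean. The log2FC was 0.38 (SE 0.14, edgeR adjusted p 0.0313) in males and 0.28 (SE 0.14, edgeR adjusted p 0.163) in females, where treated mice had 2858, 2988, 2133, 3780 and 2145 CPM against 2022 to 2871 CPM with vehicle. The male value passed when mice rich in Alb were left out (F10 and M8, 0.46, or all 5, 0.50) and in limma-voom (0.41).

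Smpx (ENSMUSG00000041476, chromosome X, 157698910 to 157752591, plus strand) had a log2FC below 0 in both sexes, unlike the other members. Vehicle-treated males had 255 to 353 CPM and corticosterone-treated males 207 to 273 CPM, all 6 below the vehicle mean, with a log2FC of -0.37 (SE 0.13, edgeR adjusted p 0.0298). Vehicle-treated females had 206 to 251 CPM, and the treated females had 199, 190, 117, 265 and 172 CPM, with a log2FC of -0.28 (SE 0.14, edgeR adjusted p 0.140). F8, the highest treated female for 8 members besides Smpx, was the treated female above all vehicle-treated females. Without the 5 mice rich in Alb the female value was -0.09, and the male value was -0.30.

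The responses of males and females were compared directly as the interaction of sex and treatment. It was called for 0 of the 10 members, against 0.690% of all genes, and for 0 by DESeq2 or limma-voom. At an unadjusted edgeR p below 0.05 lay 0 members, beside 4187 of the 13049 tested genes. The differences in log2FC, males minus females, ran from -2.19 (SE 1.63) for Csrp3 to 0.42 (SE 0.21) for Myoz1, with edgeR adjusted p-values from 0.171 to 0.995. That of Csrp3 ranged from -3.12 (without F3) to -1.43 (without M5) when single mice were left out, and was -0.86 in limma-voom, -0.81 with a score of slow fiber genes as a covariate and -0.62 with a 2A and 2X fiber score added. The SE of 1.03 for Ankrd1, whose difference was 0.01, and of 1.53 for Myoz2 leave room for large differences between the sexes in either direction. Being called in males and not in females was therefore no test of a difference for Xirp2 and Myoz1.

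Among vehicle-treated mice 0 of the 10 members differed between the sexes at 0.01 (0.958% of all genes did), and 0 were called by DESeq2 or limma-voom. At an unadjusted edgeR p below 0.05 lay 2 members, beside 1717 of the 13049 tested genes. Smpx lay higher in every vehicle-treated male than in every vehicle-treated female, which held for 1.62% of all genes, with a log2FC of 0.45 (SE 0.13, edgeR adjusted p 0.0811). Among corticosterone-treated mice 1 member differed, against 23.3% of all genes. Myoz1 was higher in males by a log2FC of 0.74 (SE 0.15, edgeR adjusted p 0.000980), every treated male above every treated female (6.87% of all genes). Without the 5 mice rich in Alb it was 0.62 and did not pass (edgeR adjusted p 0.0207). Smpx was higher in treated males by 0.36 (SE 0.14, edgeR adjusted p 0.0457), short of the threshold.

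Levels of different genes were compared per length, as CPM per kb of exon. Over all 23 mice the median was 1592 for Myoz1, 350 for Ldb3, 209 for Xirp2, 107 for Smpx, 87.8 for Ankrd2, 29.4 for Xirp1, 20.9 for Csrp3, 19.3 for Myoz2, 7.57 for Ankrd23 and 3.31 for Ankrd1. Myoz1 lay above the whole range of Ldb3, from 307 to 619, in each of the 23 mice. Neighbours in the middle of the order did not differ beyond their spread, since Ankrd2 ran from 1.45 to 551, Csrp3 from 0.264 to 150 and Myoz2 from 0.275 to 141. The ratio of the highest to the lowest mouse was 567 for Csrp3, 515 for Myoz2, 381 for Ankrd2 and 141 for Ankrd1, and 9.13 or less for the other 6 members.

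**Figure D3:**
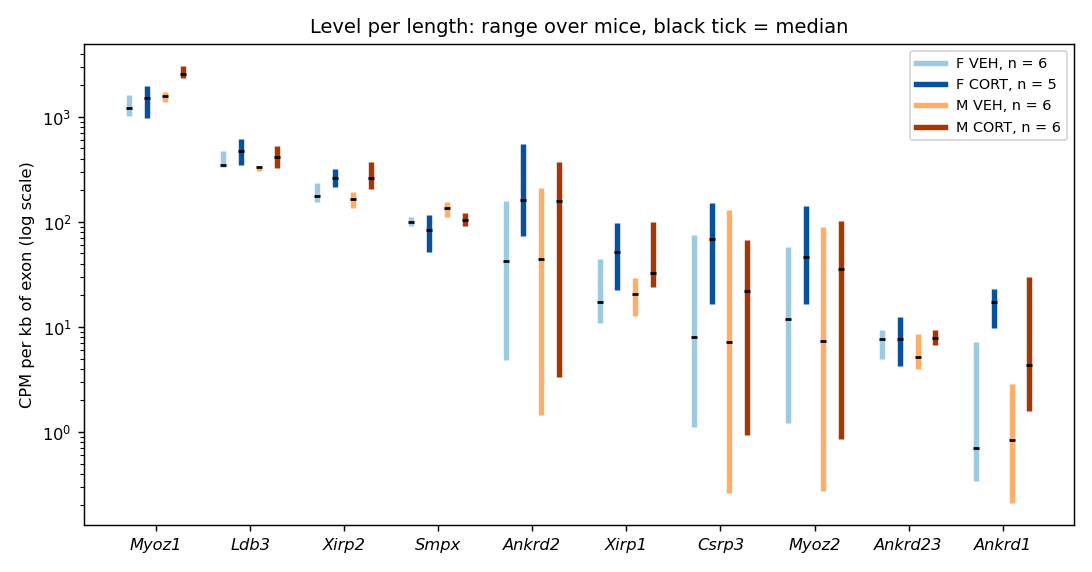
Level per length of each gene (CPM per kb of exon, log axis), with a bar from the lowest to the highest mouse of each of the 4 groups and a black tick at the median. Myoz1 is highest throughout, and the bars of Ankrd2, Csrp3, Myoz2 and Ankrd1 are the long ones.

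Ratios of related members within a library do not depend on how libraries are scaled. The log2 ratio of Myoz2 to Myoz1, a slow over a fast calsarcin and without Myoz3, was -6.74 ± 3.25 in vehicle-treated and -5.99 ± 2.54 in corticosterone-treated males (SD, n = 6 each, exact permutation p = 0.665). In females it was -5.87 ± 2.27 and -4.29 ± 1.31 (SD, n = 6 and 5, exact permutation p = 0.195). The log2 ratio of Xirp1 to Xirp2 was higher by 0.30 with corticosterone in males and by 0.92 in females (exact permutation p = 0.383 and 0.126), and that of Ankrd1 to Ankrd2 by 1.11 in each sex (exact permutation p = 0.528 and 0.429). None of these 6 two-sided comparisons passed 0.05, adjusted p-values ran from 0.584 to 0.665, and the smallest p possible was 0.00216 in males and 0.00433 in females.

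Csrp3, Myoz2 and Ankrd2, the members with the widest spread, were mostly higher in mice rich in slow fiber markers. The slow fiber score, the mean log2 CPM of 9 slow fiber genes, separated the mice into 14 with scores from -0.02 to 5.16 and 9 with scores from 7.26 to 9.17. The 9 rich mice were 2 vehicle-treated females, 3 corticosterone-treated females, 2 vehicle-treated males and 2 corticosterone-treated males. Myoz2 lay between 146 and 484 CPM in these 9 and between 0.940 and 144 CPM in the other 14, without overlap. Csrp3 lay between 103 and 399 CPM against 0.705 and 182 CPM, and Ankrd2 between 99.9 and 627 CPM against 1.64 and 192 CPM. Medians of Xirp2 (2450 and 2520 CPM), Myoz1 (3013 and 2998 CPM) and Ankrd23 (21.8 and 20.1 CPM) were close in the 9 and the 14 mice.

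Because the scores form separate sets, relations were computed within each, after removing group means, and 20 were computed in all. Among the 14 mice Myoz2 had r = 0.90 and rho = 0.79 with the score (permutation test, adjusted p = 0.0188 and 0.0528). Csrp3 had r = 0.83 and rho = 0.72 (permutation test, adjusted p = 0.0475 and 0.118), and Ankrd2 r = 0.79 and rho = 0.61 (permutation test, adjusted p = 0.0785 and 0.245). Leaving out M9 and M8, the mice with the lowest scores and both rich in Alb, gave r = 0.72 for Myoz2, 0.52 for Csrp3 and 0.41 for Ankrd2. The relations of Csrp3 and Ankrd2 thus rest largely on those 2 mice. Among the 9 mice r was -0.24 for Myoz2, 0.03 for Csrp3 and -0.34 for Ankrd2 (exact permutation tests, adjusted p 0.796 or above), and none of the other members passed 0.05 in either set.

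With the score as a covariate the log2FC of Csrp3 in males was 1.12 (edgeR adjusted p 0.128) in place of -0.46, and that of Myoz2 1.78 (edgeR adjusted p 0.0113) in place of 0.54. With a score for the fast oxidative 2A and 2X fibers added, an alternative chosen after seeing the data, Myoz2 had a log2FC of 1.21 in males and passed (edgeR adjusted p 0.000969). The same fit gave 0.37 (edgeR adjusted p 0.322) for Myoz2 in females. Xirp2 and Myoz1 in males were 0.68 and 0.77 in that fit and stayed called. The 4 markers of fast 2B fibers had a median log2FC of 0.40 in males and -0.35 in females. Of these 4, 1 was called higher and 1 lower in males (13.2% and 13.1% of all tested genes). In females 0 were called higher and 1 lower (7.40% and 6.0%). No score of the 2B markers was fitted, so their part in the values of Myoz1 was not tested. The median log2FC of the slow markers themselves was -1.21 in males and -0.28 in females. Other measures of the same markers differed in sign, since the mean score was 6.59 in corticosterone-treated and 5.0 in vehicle-treated females (4.16 and 4.38 in males), and the median summed level was 1764 against 231 CPM in females and 225 against 141 CPM in males. How far fiber content enters the values of Ankrd2, Csrp3 and Myoz2 beyond these fits was not tested.

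**Figure D4:**
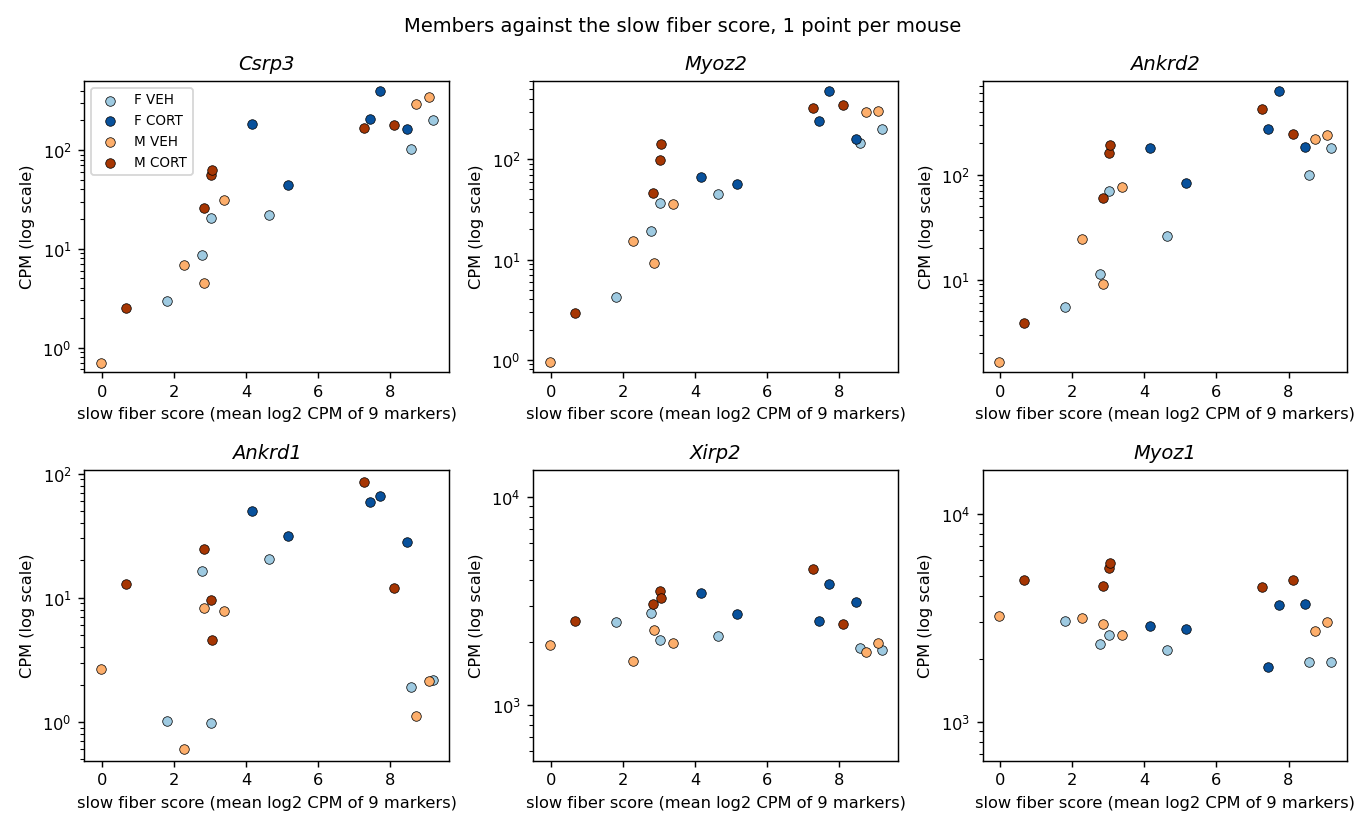
CPM (log axis) of 6 members against the slow fiber score of each mouse, with 1 point per mouse colored by group. Csrp3, Myoz2 and Ankrd2 climb with the score up to the 9 rich mice, while Xirp2 and Myoz1 stay flat and separate by treatment in males.

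The genes most alike in pattern were taken from all tested genes by Pearson's r of log2 CPM over the 23 mice, a description in which libraries, treatment and fiber content are shared by all points. Ankrd2, Csrp3 and Myoz2 were nearest to each other, with r of 0.96 to 0.97, and after them Csrp3 was nearest to Myom3 (0.95), an M-band gene of slow and intermediate fibers. Xirp1 followed Flnc (0.96), the filamin of muscle, Tnfrsf12a (0.93) and Bag3 (0.87), a co-chaperone of filamin turnover. Xirp2 followed Amot (0.85) and Dmd (0.85), which makes dystrophin, and Myoz1 followed Arfgap2 (0.97), Parp6 (0.96) and Adipor1 (0.96). Ankrd1 was nearest to Prg4 (0.88), Smpx to Gpc1 (0.92), Ldb3 to Cpox (0.85) and Ankrd23 to Tspan7 (0.77). Ankrd1 and Xirp2 had r = 0.77 with each other, and Ankrd1 and Smpx -0.51.

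Other genes of the Z-disc were also called in males and in females. Of 28 Z-disc and titin partners, 11 were higher and 1 lower in males at 0.01, with a median log2FC of 0.51, and 4 were higher and 1 lower in females, with a median of 0.07. Of all tested genes 13.2% were called higher and 13.1% lower in males, and 7.40% and 6.0% in females. Pdlim5, which like Ldb3 makes a PDZ and LIM protein of the Z-disc, rose from 417 ± 82.4 to 1151 ± 240 CPM in males (SD, n = 6 each) with a log2FC of 1.47 (edgeR adjusted p 5.56e-07) and by 1.33 in females (edgeR adjusted p 1.37e-05). Des, which makes the filament desmin, rose in males (1.21) and in females (0.64), and the chaperone gene Cryab rose in females (1.75, edgeR adjusted p 0.000439). Myoz3, the third calsarcin gene, fell in both sexes, from 235 ± 29.2 to 108 ± 44.8 CPM in males (log2FC -1.12, SE 0.22, edgeR adjusted p 0.000351) and from 180 ± 33.4 to 89.6 ± 19.9 CPM in females (-1.01, SE 0.23, edgeR adjusted p 0.00292). The 3 calsarcin genes therefore had log2FC values of 0.75, 0.54 and -1.12 in males.

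Of 12 genes of the calcineurin and NFAT pathway, to which calsarcins bind, 1 was lower in males (Rcan3, -0.59, edgeR adjusted p 0.00114) and 1 lower in females (Ppp3ca, a catalytic subunit, -0.73, edgeR adjusted p 0.00113). Of 15 genes of the stretch-linked YAP, TEAD, SRF and MRTF regulators, 3 were higher and 3 lower in males, and 2 were higher and 1 lower in females. Among the listed targets Ccn1 and Amotl2 rose in males (2.04 and 1.62) and in females (1.32 and 1.82). Ccn2, also in the list, was not called in either sex. Among the regulators the kinase Lats1 rose in males (0.75), Tead1, whose protein binds M-CAT motifs, fell in males by 0.64, and Mrtfa fell by 1.33 in males and by 0.81 in females on the log2 scale. Of 13 genes of costamere adhesion 3 were higher in males and 2 in females. Itga7, the laminin receptor of muscle, rose by 0.94 and 1.04, Tln2 by 0.91 in males and Parva by 1.38 in females. Of all tested genes 26.3% were called in males and 13.4% in females, and the counts in these small lists are no result about the pathways.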

How the data were processed

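Stranded libraries of quadriceps from 23 mice were sequenced in read pairs. The authors aligned them to mm10 with STAR 2.7.3a, counted pairs that fell on 1 gene with HTSeq 0.12.4, and deposited these whole-number counts as they were, not normalized. The 5 summary entries (10.7% to 15.3% of pairs) were left out. Names and positions came from GENCODE M21. Groups follow sex and treatment as labelled. The members and all lists were chosen with earlier results of these data known.

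Counts were tested in R 4.3.3 with edgeR 4.0.16 (quasi-likelihood test, TMM, 1 mean per group, all mice), for the 13049 genes whose normalized count exceeded 20 in 4 or more mice of a group. Adjustment over these genes was by Benjamini-Hochberg, with a threshold of 0.01. DESeq2 1.42.0 and limma 3.58.1 (voom) were alternatives. The fits were tested on simulated data. Ratios were log2 of counts plus 0.5 and were compared by two-sided exact permutation tests (scipy 1.17.1). The relation to the slow fiber score was planned over all mice and is given within 2 sets because the scores are separated. Genes besides the members are named by rule: the 3 most alike in pattern to a member, the 2 with the smallest adjusted p in each list, sex and direction, members of the same families, and Fkbp5. No 2 replicates differed by less than sampling noise.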

Additional observations from a re-analysis of the deposited data

Results flagged for a closer look

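Among corticosterone-treated males, M10 stood apart for Ankrd1, at 85.8 CPM where the other 5 had 4.59 to 24.7 CPM, and for Xirp1, at 583 CPM where the others had 141 to 278 CPM. In both cases the gap to the nearest mouse was larger, relative to the range of the group, than Dixon's limit. Of 40 groups of mice tested in this way 2 stood out, and chance alone gives about 1 in 20. M10 also held the highest Xirp2 of its group, at 4484 CPM, and a high slow fiber score, while Alb was at 27.2 CPM, the lowest of the treated males.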

How the results depend on the processing

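The calls of Xirp2 and Myoz1 in males held in all 33 alternatives, though 0 members passed with an added limit of 1 on the log2FC, in males as between corticosterone-treated males and females. In females the count of members called was 2 in DESeq2 and 1 in limma-voom, and 0 to 1 when single mice were left out. Between corticosterone-treated males and females it was 2 in limma-voom, 1 to 2 when single mice were left out, and 0 without the 5 mice rich in Alb, an alternative chosen after seeing the data. The log2FC of Csrp3 in males turned to 1.74 in limma-voom, 1.12 with the slow fiber score and 0.72 with the 2A and 2X score added, and ranged from -0.86 to 0.30 when single mice were left out, and the cause was not tested. The female log2FC of Ankrd23 ranged from -0.080 (without F8) to 0.28, and the log2 ratio of Myoz2 to Myoz1 in males from -0.25 (without M9) to 1.68. Smpx in males passed with males fitted alone (-0.35) and without F6 (-0.36), and between treated males and females in limma-voom (0.43) and without F8 (0.51).

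Mice of both sexes carry the same numbers within a treatment. Over the 11 same-numbered pairs the deviations had r from -0.38 to 0.48, over 0.1 in 7 pairs. Of the females, 4 correlated best with their own number. Values of r ran from 0.08 to 0.48 in vehicle-treated pairs and from -0.38 to 0.24 in corticosterone-treated pairs. Among vehicle-treated mice Ankrd1 was highest in F7 and F11 (16.3 and 20.6 CPM) and in M7 and M11 (8.32 and 7.81 CPM). The vehicle-treated mice rich in slow fiber markers were F3, F5, M3 and M5. With corticosterone the rich mice were F2, F8, F10, M6 and M10. Comparisons within a sex took mice as independent, and whether same-numbered mice share a factor was not tested. With the numbers as a replicate block, 0 members were called for the interaction, 0 between vehicle-treated sexes and 1, Myoz1 (0.81), between corticosterone-treated sexes, where 2262 genes were called in place of 3043. Numbers are not shared by vehicle and corticosterone, so no block was possible there.

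Background counts moved more. For the interaction 90 genes were called, 896 in DESeq2, 693 in limma-voom, 10 without a gene filter, 30 with the slow fiber score, 4 without F10 and M8, 3 without the 5 mice rich in Alb, and 1 to 893 when single mice were left out. In females 1748 were called, 561 with females fitted alone, 460 without the mice rich in Alb, and 1117 and 1004 without F2 and F6. Between corticosterone-treated sexes 3043 were called, 1382 without F10 and M8, 290 without the mice rich in Alb, and 2009 and 1885 without F6 and F10. Between vehicle-treated sexes 125 were called, 284 in DESeq2 and 208 with both fiber scores. Of the Z-disc list 5 were called in females and 3 without the mice rich in Alb, and of the calcineurin list 1, and 0 to 3 over all alternatives. The costamere list had 3 called in males and 5 with both fiber scores, and 2 in females and 1 without the mice rich in Alb or with females fitted alone. The stretch-linked regulators had 3 in females and 1 without the mice rich in Alb. With 5 or 6 mice a group, Ankrd2, Csrp3 and Myoz2 had an SE near 1 on the log2 scale, so that even changes of several fold could fail to pass. Ankrd1, with a smaller SE of 0.82, did not pass in edgeR at a fold of 6.53 in females and 6.57 in males.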

Other observations

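Csrp1 and Csrp2, the other genes of the Csrp family, did not pass with corticosterone in either sex. Csrp1 was at 27.7 ± 3.38 CPM in vehicle-treated and 23.3 ± 5.23 CPM in corticosterone-treated males (SD, n = 6 each), and at 33.6 ± 16.2 and 49.0 ± 16.7 CPM in females (SD, n = 6 and 5). Csrp2 was low, at 3.49 ± 0.898 and 3.24 ± 0.497 CPM in males and 6.32 ± 3.95 and 8.61 ± 3.90 CPM in females. Among corticosterone-treated mice both were lower in males, Csrp1 by a log2FC of -1.08 (SE 0.25, edgeR adjusted p 0.00247) and Csrp2 by -1.41 (SE 0.33, edgeR adjusted p 0.00239), while the interaction had edgeR adjusted p-values of 0.121 and 0.416.

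Of 6 genes known to rise in denervated muscle 5 were tested, and 2 were called higher in males and 1 in females, beside 13.2% and 7.40% of all tested genes, with 0 called lower. Their summed level was 58.1 to 92.8 CPM with corticosterone against 32.0 to 50.9 CPM with vehicle in males, and 33.4 to 66.1 against 30.8 to 70.7 CPM in females. Musk, the receptor kinase of the neuromuscular junction, rose by 1.24 in males (edgeR adjusted p 0.000334) and by 1.03 in females (edgeR adjusted p 0.00484), and the myogenic factor gene Myog rose by 1.76 in males (edgeR adjusted p 5.05e-05) and had a log2FC of 0.73 in females (edgeR adjusted p 0.0600). The summed level of 4 genes of regenerating fibers lay between 24.6 and 34.8 CPM in corticosterone-treated males and between 17.3 and 25.8 CPM in vehicle-treated males, and between 23.2 and 44.4 against 16.4 and 25.6 CPM in females. Myog belongs to this list too, so the 2 lists are not separate. It was the 1 gene of these 4 called in males, and 0 were called in females. Of 4 erythrocyte genes all 4 rose in each sex. Of 6 fibroblast and tendon genes 1 rose and 3 fell in males, and their summed level was 74.7 to 122 CPM with corticosterone against 593 to 809 CPM with vehicle. In females 0 rose and 1, Col3a1, fell, and the summed level was 143 to 575 against 430 to 1315 CPM. The summed level of 6 adipocyte genes was 258 to 6261 CPM in corticosterone-treated females against 275 to 2449 CPM in vehicle-treated females, and 276 to 860 against 216 to 940 CPM in males. Their part in the values of the members was not tested.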
